A study of Mus musculus with 7 samples.

Results

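Interferon gamma and the genes through which it signals were followed in 7 s/c tumors of mouse pancreatic ductal adenocarcinoma (PDA) cells. The 9 genes were the ligand Ifng, its receptor chains Ifngr1 and Ifngr2, the receptor kinases Jak1 and Jak2, the transcription factors Irf1 and Irf8, and the feedback inhibitors Socs1 and Socs3. They were taken by symbol from a table of 22629 rows, and all 9 were among the 17489 rows with enough counts for a test. All tumors were formed in C57BL/6 mice with line 1242, which came from a KPC mouse tumor with engineered alleles under Pdx1-Cre, a mutant Trp53 among them, and were harvested 2 weeks after inoculation. The cells of all tumors carried Cas9 and a scrambled control guide. The 3 sgScramble tumors are numbered 1, 4 and 5. The 4 sgScramble-icOVA tumors are numbered 15, 16, 18 and 2, and their cells also carried a doxycycline-inducible ovalbumin that stays in the cytoplasm, which the methods say was induced through doxycycline in the food from the day of inoculation. The methods describe single-cell cloning after the ovalbumin vector was added, and give a larger inoculum for ovalbumin-inducible tumors than for s/c tumors in general. A difference between cell clones, a different inoculum, doxycycline itself and the effect of ovalbumin cannot be told apart here. The sources used here do not say whether the mice of the sgScramble tumors received doxycycline or which inoculum they had. Nor do they say whether the cells of these 3 tumors held the ovalbumin vector without induction. Mice were bought at 6 weeks of age and housed for 2 weeks before use.

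Interferon gamma is made mainly by activated T cells and NK cells. It binds a receptor of IFNGR1 and IFNGR2 chains, which carry the kinases JAK1 and JAK2, and these send the signal to GAS elements in DNA, which switch on Irf1 and other genes, while SOCS1 and SOCS3 restrain the kinases. In tumors the pathway is known for raising antigen presentation and PD-L1 and for making macrophages more inflammatory.

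Promoter sequences of 4 of the genes are shown because they hold matches to the letters of the DNA elements that this pathway acts through. They are the 3 genes that later passed the test between groups, Ifng, Irf8 and Socs1, and Irf1, a classical interferon gamma target that did not. Each is the 250 bases before a RefSeq start site on GRCm38.p6, written 5' to 3' on the strand of the gene, with the matches found in capitals. The GAS letters searched on both strands were TTCNNNGAA, and those of the ISRE core, the element that IRF proteins bind, were GAAANNGAA. The Ifng window lies at chr10:118440796-118441045 on the plus strand, the Irf1 window at chr11:53769764-53770013 on the plus strand, the Irf8 window at chr8:120736108-120736357 on the plus strand and the Socs1 window at chr16:10785537-10785786 on the minus strand.
Ifng: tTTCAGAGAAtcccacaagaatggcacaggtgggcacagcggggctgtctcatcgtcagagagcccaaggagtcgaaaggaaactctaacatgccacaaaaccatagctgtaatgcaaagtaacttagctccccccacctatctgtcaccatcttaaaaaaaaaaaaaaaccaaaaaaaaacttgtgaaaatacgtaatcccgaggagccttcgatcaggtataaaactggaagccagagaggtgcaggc
Irf1: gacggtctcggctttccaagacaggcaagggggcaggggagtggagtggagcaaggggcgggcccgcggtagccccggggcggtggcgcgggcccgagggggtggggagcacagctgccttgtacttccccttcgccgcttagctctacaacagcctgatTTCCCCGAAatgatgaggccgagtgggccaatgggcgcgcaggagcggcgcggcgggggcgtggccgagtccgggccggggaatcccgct
Irf8: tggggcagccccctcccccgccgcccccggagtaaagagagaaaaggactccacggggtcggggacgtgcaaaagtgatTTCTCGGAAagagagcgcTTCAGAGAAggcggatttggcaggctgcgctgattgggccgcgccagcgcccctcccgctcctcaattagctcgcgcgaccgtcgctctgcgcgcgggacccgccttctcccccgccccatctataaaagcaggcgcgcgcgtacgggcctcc
Socs1: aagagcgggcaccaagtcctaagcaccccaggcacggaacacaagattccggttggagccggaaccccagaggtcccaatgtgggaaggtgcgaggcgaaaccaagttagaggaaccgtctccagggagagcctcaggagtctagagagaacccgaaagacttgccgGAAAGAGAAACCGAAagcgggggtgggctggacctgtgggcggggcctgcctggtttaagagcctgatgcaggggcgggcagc
The Ifng window held TTCAGAGAA from 249 to 241 bases before the start site. The Irf1 window held TTCCCCGAA from 90 to 82 bases before it. Irf8 had a pair of GAS matches, TTCTCGGAA from 171 to 163 bases and TTCAGAGAA from 153 to 145 bases before the start site. In Socs1 the matches were 2 overlapping ISRE cores, GAAAGAGAA from 83 to 75 bases and GAAACCGAA from 77 to 69 bases before the start site. The RefSeq promoters of all 9 genes were found, and 4 of the 9 genes held the GAS letters, the fourth being Socs3 with TTCTTAGAA from 154 to 146 bases before its start. That RefSeq start lies 681 bases inside the Socs3 gene as GENCODE draws it. The Socs3 window thus falls within the gene and overlaps 1 annotated exon. Irf1 and Irf8 each had 2 RefSeq start sites, and the second window of each, not shown, held no match. The ISRE core was held by 1 of the 9 genes, Socs1. Of all 32851 promoters of this length, 7.02% held the GAS letters and 7.13% held the ISRE core. These shares are per promoter, while the counts among the 9 are per gene. A match describes the letters in the window and is not evidence of binding.

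The libraries were sequenced to similar depth, with 30904855 to 37510591 counted reads per tumor. The transgene checked the labels, with 85 to 151 OVA counts per sgScramble tumor and 3413 to 10750 per icOVA tumor. The OVA level was low but not 0 in sgScramble tumors, at 2.58 to 4.35 CPM against 98.2 to 308 CPM in icOVA tumors. Where the OVA counts of sgScramble tumors came from was not tested. Levels below are CPM, the count relative to the size of the library after scaling the libraries by TMM, and fold changes are on the log2 scale as icOVA minus sgScramble. Within groups the log2 CPM of 2 tumors correlated across genes at 0.961 to 0.988, and between groups at 0.942 to 0.981, where genes are not independent replicates. The keratins and other epithelial genes that mark PDA cells summed to 4464 to 4706 CPM in sgScramble tumors and 2910 to 5072 CPM in icOVA tumors, with the lowest value in icOVA tumor 18.

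Ifng, Irf8 and Socs1 rose in the icOVA tumors. They were the 3 of 9 genes called higher at an adjusted p under 0.05 by edgeR, where 3.36% of all genes tested were called higher. None of the 9 was called lower by edgeR, DESeq2 or limma-voom, which called 2.54%, 7.31% and 2.42% of all genes lower. At an unadjusted p under 0.05 edgeR gave 6 of the 9 genes higher and 1 lower, Ifngr2, beside 13.4% of all genes higher and 13.8% lower. DESeq2 called 4 of the 9 genes higher and limma-voom 2, beside 8.91% and 2.96% of all genes. In 4 of 9 genes, Ifng, Jak1, Irf8 and Socs1, every icOVA tumor lay above every sgScramble tumor, a pattern held by 11.3% of all genes. In none did every icOVA tumor lie below every sgScramble tumor, against 13.3% of all genes. The fold change was positive in 8 of 9 genes with a median of 0.30, beside a median of -0.0048 over all genes, and in 1 of 9 when the libraries were scaled to Ptprc in place of TMM. The calls were sensitive to the tumors included. With sgScramble tumor 1, sgScramble tumor 5 or icOVA tumor 15 left out, edgeR called no gene of the whole table, although 3087, 2936 and 3415 genes had an unadjusted p under 0.05. With icOVA tumor 2 left out it called 8 genes, none of them among the 9. Without sgScramble tumor 4, icOVA tumor 16 or icOVA tumor 18 it called 1543, 1730 and 1107 genes, against 1032 with all tumors. Of the 9 genes, these fits called 3, 2 and 4 higher.

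**Figure D1:**
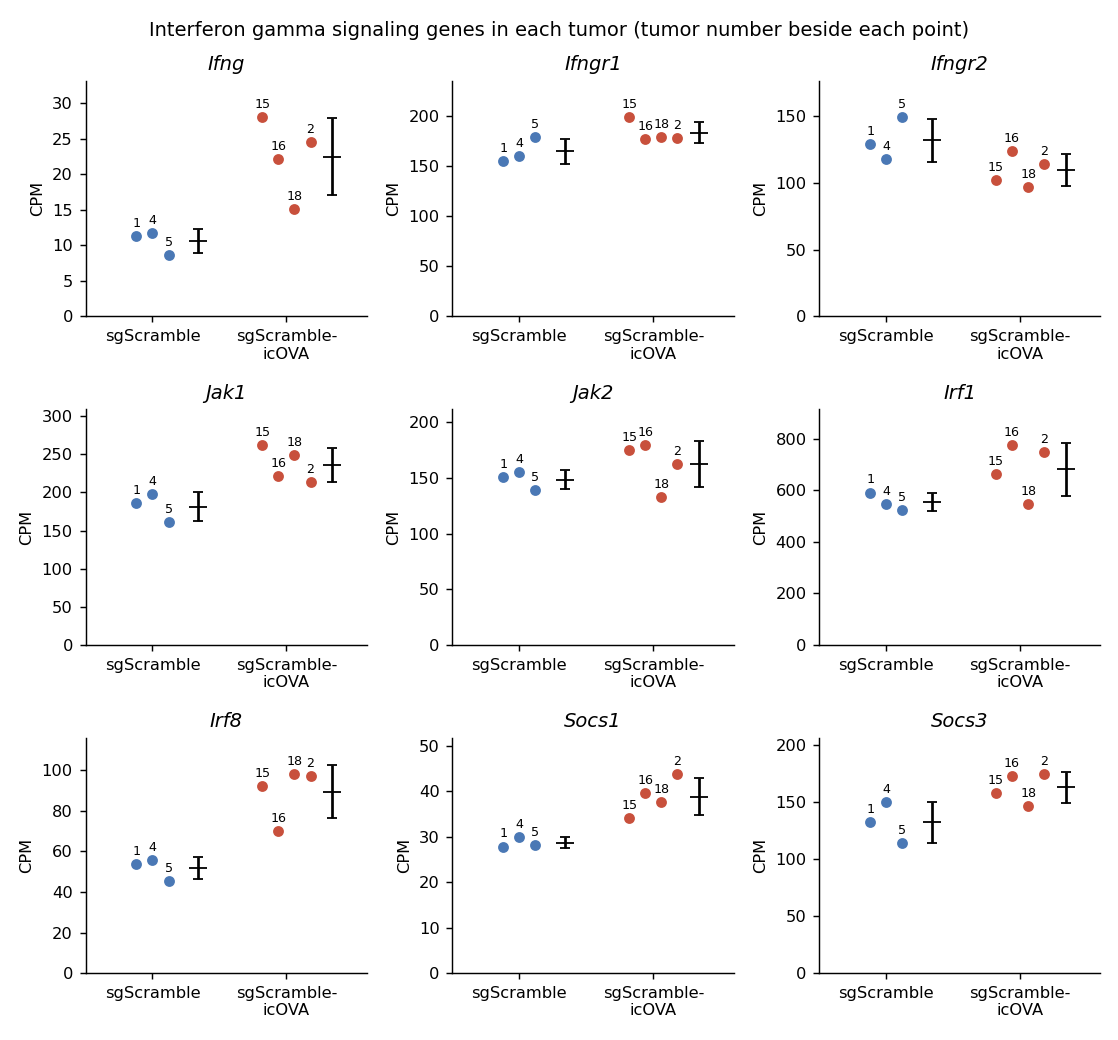
CPM of each of the 9 genes in each tumor, with the tumor number above its point and the group mean ± SD (n = 3 sgScramble, n = 4 sgScramble-icOVA) beside the points. Every icOVA tumor sits above every sgScramble tumor for Ifng, Jak1, Irf8 and Socs1, while the groups overlap for the other genes.

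Ifng, the ligand, lies on chromosome 10 of GRCm38 from 118441046 to 118445892 on the plus strand. It had 11.4, 11.7 and 8.70 CPM in sgScramble tumors 1, 4 and 5, and 28.0, 22.1, 15.2 and 24.5 CPM in icOVA tumors 15, 16, 18 and 2. The groups did not overlap, and icOVA tumor 18 was the lowest of its group. The means were 10.6 ± 1.65 CPM (SD, n = 3) and 22.4 ± 5.44 CPM (SD, n = 4), and the log2 fold change was 1.08 (SE 0.22, 95% interval 0.58 to 1.59, adjusted p = 0.0352 from edgeR). With limma-voom the adjusted p was 0.0513. When each tumor was left out in turn the log2 fold change ran from 0.96 to 1.23, and the adjusted p from 0.0185 to 0.162. It lost its call without sgScramble tumor 1 (adjusted p = 0.146), sgScramble tumor 5 (0.162), icOVA tumor 15 (0.0969) or icOVA tumor 2 (0.0834), each from edgeR. The values rested on 272 to 395 counts per sgScramble tumor and 527 to 1038 per icOVA tumor. A gene model of unknown coding status on the same strand, Gm49751, shares 336 exonic bases with Ifng and had 358 counts over all tumors, beside 4175 for Ifng.

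The cells that make interferon gamma were followed by T cell and NK cell genes. Of 8 T cell genes, 7 were called higher in icOVA tumors by edgeR, beside 3.36% of all genes. The summed level of the T cell genes was 104 to 165 CPM in sgScramble tumors and 227 to 360 CPM in icOVA tumors. Of 5 NK cell genes, 1 was called higher, Klrd1, beside the same share of all genes, and the sum was 39.2 to 58.2 CPM against 61.8 to 123 CPM. Klrd1 and Klrk1 were the 2 whose groups did not overlap. Ncr1, Klrb1c and Klra8 overlapped between groups, with Ncr1 at 2.53 to 3.94 CPM in sgScramble tumors and 1.89 to 8.31 CPM in icOVA tumors. No gene of either list was at 0 in all tumors. In bulk RNA, more cells of a type and more RNA per cell cannot be told apart. Ifng was therefore also set against the mean log2 CPM of Cd3d, Cd3e and Cd3g, the CD3 chains that T cells carry. Among sgScramble tumors 1, 4 and 5 this difference was 0.22, -0.27 and -0.44, and among icOVA tumors 15, 16, 18 and 2 it was -0.29, 0.085, -0.94 and -0.12. The groups overlapped, and tumor 18 was the lowest of all 7. The mean was -0.16 ± 0.34 (SD, n = 3) in sgScramble tumors and -0.32 ± 0.44 (SD, n = 4) in icOVA tumors, a difference of -0.15 with p = 0.743 in an exact two-sided permutation test and 0.743 after adjustment over 6 relative levels. Leaving out icOVA tumor 18 made this difference 0.056, and leaving out sgScramble tumor 1 made it 0.041. With 3 and 4 tumors the smallest p that the exact permutation test allows is 0.0571.

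Neither receptor chain passed the test. Ifngr1, which binds the ligand, lies on chromosome 10 from 19591949 to 19610229. It had 154, 160 and 179 CPM in sgScramble tumors 1, 4 and 5 and 199, 177, 178 and 178 CPM in icOVA tumors 15, 16, 18 and 2. The groups overlapped because sgScramble tumor 5 was slightly above 3 of the icOVA tumors. Its log2 fold change was 0.16 (SE 0.078, 95% interval -0.026 to 0.34, adjusted p = 0.243 from edgeR). Ifngr2, the chain that brings JAK2 to the complex, lies on chromosome 16 from 91547072 to 91565623. It had 129, 118 and 149 CPM in sgScramble tumors and 102, 124, 97.3 and 114 CPM in icOVA tumors. Only icOVA tumor 16 exceeded any sgScramble tumor, and the log2 fold change was -0.27 (SE 0.11, 95% interval -0.53 to -0.0096, adjusted p = 0.172 from edgeR), the only negative value of the 9.

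Within a tumor, the level of Ifngr2 relative to Ifngr1 was lower in all 4 icOVA tumors than in any sgScramble tumor. The difference of their log2 CPM was -0.26, -0.44 and -0.26 for sgScramble tumors 1, 4 and 5, while icOVA tumors 15, 16, 18 and 2 had -0.96, -0.51, -0.87 and -0.64. The group difference was -0.43, from -0.32 ± 0.10 (SD, n = 3) to -0.74 ± 0.21 (SD, n = 4). Its p was 0.0571, the smallest that the exact two-sided permutation test can give here, and 0.257 after adjustment over 6 relative levels, so it did not pass. Leaving out each tumor in turn gave differences from -0.50 to -0.36.

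Jak1 and Jak2 did not pass the test either. Jak1, the kinase bound to IFNGR1, lies on chromosome 4 from 101152367 to 101265282 on the minus strand. It had 186, 198 and 161 CPM in sgScramble tumors 1, 4 and 5 and 262, 221, 248 and 214 CPM in icOVA tumors 15, 16, 18 and 2. The groups did not overlap, yet the log2 fold change of 0.38 (SE 0.10, 95% interval 0.14 to 0.62) had an adjusted p of 0.0705 from edgeR. DESeq2 called it, with an adjusted p of 0.00934. Jak2, the kinase bound to IFNGR2, lies on chromosome 19 from 29251828 to 29313080. It had 150.5, 156 and 139 CPM in sgScramble tumors and 175, 179, 133 and 162 CPM in icOVA tumors. Tumor 18 was the lowest of all 7, and the log2 fold change was 0.13 (SE 0.11, 95% interval -0.12 to 0.39, adjusted p = 0.474 from edgeR). Jak2 relative to Jak1 had a group difference of -0.26 on the log2 scale with 3 of 4 icOVA tumors below all of the others (p = 0.171 in the exact permutation test, adjusted 0.257).

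Of the transcription factors, Irf8 rose and Irf1 did not pass. Irf8, a factor of macrophages, dendritic cells and B cells, lies on chromosome 8 from 120736358 to 120756694. It had 54.0, 55.6 and 45.5 CPM in sgScramble tumors 1, 4 and 5 and 92.0, 70.1, 98.2 and 96.9 CPM in icOVA tumors 15, 16, 18 and 2. The lowest icOVA tumor, 16, was above every sgScramble tumor. The means were 51.7 ± 5.42 CPM (SD, n = 3) and 89.3 ± 13.1 CPM (SD, n = 4), and its log2 fold change was 0.79 (SE 0.13, 95% interval 0.48 to 1.10, adjusted p = 0.0271 from edgeR). It kept a log2 fold change of 0.71 to 0.89 when each tumor was left out, and was called in 3 of those 7 fits, losing the call without sgScramble tumor 1 (adjusted p = 0.126), sgScramble tumor 5 (0.134), icOVA tumor 15 (0.0850) or icOVA tumor 2 (0.0681), each from edgeR. Another gene model on the same strand, Gm20388, spans Irf8 without sharing exonic bases, and had 31882 counts beside 17513 for Irf8 and a log2 fold change of -0.020.

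Irf8 is a leukocyte gene, and it was read beside markers of leukocytes. Ptprc, which encodes the leukocyte surface protein CD45, rose with a log2 fold change of 1.08 ± 0.18 (SE, edgeR adjusted p = 0.0271). Of 6 macrophage genes, 1 was called higher by edgeR, 4 by DESeq2 and 2 by limma-voom, beside 3.36%, 8.91% and 2.96% of all genes. At an unadjusted p under 0.05 edgeR gave 5 of them higher, beside 13.4%. The macrophage genes summed to 862.5 to 1178 CPM in sgScramble tumors and 1178 to 1780 CPM in icOVA tumors. Of 6 dendritic cell genes none was called by edgeR or limma-voom. DESeq2 called 1 higher and edgeR gave 3 higher at an unadjusted p under 0.05, beside 8.91% and 13.4% of all genes. The dendritic cell genes summed to 76.3 to 99.9 CPM against 87.7 to 118 CPM. Of 5 B and plasma cell genes tested, 2 were called higher by edgeR, beside 3.36% of all genes, with sums of 1.79 to 3.20 CPM against 3.87 to 12.5 CPM. No gene of these lists was at 0 in all tumors. On the log2 scale Irf8 relative to Ptprc was at -1.29, -1.65 and -1.35 for sgScramble tumors 1, 4 and 5, while icOVA tumors 15, 16, 18 and 2 had -1.98, -1.88, -1.67 and -1.42. In 3 of 4 icOVA tumors it was below all sgScramble tumors, and the group difference of -0.31 did not pass the exact two-sided permutation test (p = 0.114, adjusted 0.257).

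Irf1, an early factor of the interferon gamma response, lies on chromosome 11 from 53770014 to 53778374. It had 592, 548 and 524 CPM in sgScramble tumors 1, 4 and 5 and 663, 775, 546 and 749 CPM in icOVA tumors 15, 16, 18 and 2. Tumor 18 lay within the sgScramble range, and the other icOVA tumors lay above it. The log2 fold change was 0.30 (SE 0.13, 95% interval 0.0010 to 0.60, adjusted p = 0.182 from edgeR), and without tumor 18 it was 0.39 with an adjusted p of 0.0496. For Irf8 relative to Irf1 the sgScramble tumors had -3.45, -3.30 and -3.52 on the log2 scale, while the icOVA tumors had -2.85, -3.46, -2.48 and -2.95. Tumor 16 lay within the sgScramble range and the other 3 icOVA tumors lay above all sgScramble tumors. The groups differed by 0.49, with p = 0.171 in the exact two-sided permutation test and 0.257 after adjustment.

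The feedback genes Socs1 and Socs3 encode inhibitors that bind the receptor kinases. Socs1 lies on chromosome 16 from 10782240 to 10785536 on the minus strand. It had 27.8, 29.99 and 28.1 CPM in sgScramble tumors 1, 4 and 5 and 34.1, 39.5, 37.7 and 43.8 CPM in icOVA tumors 15, 16, 18 and 2. The sgScramble tumors lay close together and below every icOVA tumor. Socs1 rose from 28.7 ± 1.16 CPM (SD, n = 3) to 38.8 ± 4.02 CPM (SD, n = 4), which is a log2 fold change of 0.44 (SE 0.096, 95% interval 0.21 to 0.66, adjusted p = 0.0425 from edgeR). It rested on 880 to 987 counts per sgScramble tumor and 1263 to 1408 per icOVA tumor. The call was lost without a filter on low counts (adjusted p = 0.0524) and in 5 of 7 fits with a tumor left out, without sgScramble tumor 1 (0.177), sgScramble tumor 5 (0.182), icOVA tumor 15 (0.0748), icOVA tumor 16 (0.0535) or icOVA tumor 2 (0.0910), with log2 fold changes of 0.38 to 0.50 from edgeR.

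Socs3, which also answers to IL-6 family cytokines, lies on chromosome 11 from 117966079 to 117970047 on the minus strand. It had 132, 149 and 114 CPM in sgScramble tumors 1, 4 and 5 and 157, 173, 146 and 174 CPM in icOVA tumors 15, 16, 18 and 2. Only sgScramble tumor 4 reached into the icOVA range, above tumor 18. The log2 fold change was 0.30 (SE 0.11, 95% interval 0.051 to 0.55, adjusted p = 0.126 from edgeR). Socs3 relative to Socs1 differed between groups by -0.12 on the log2 scale (exact two-sided permutation test, p = 0.229, adjusted 0.274), with 2 of 4 icOVA tumors below all sgScramble tumors.

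**Figure D2:**
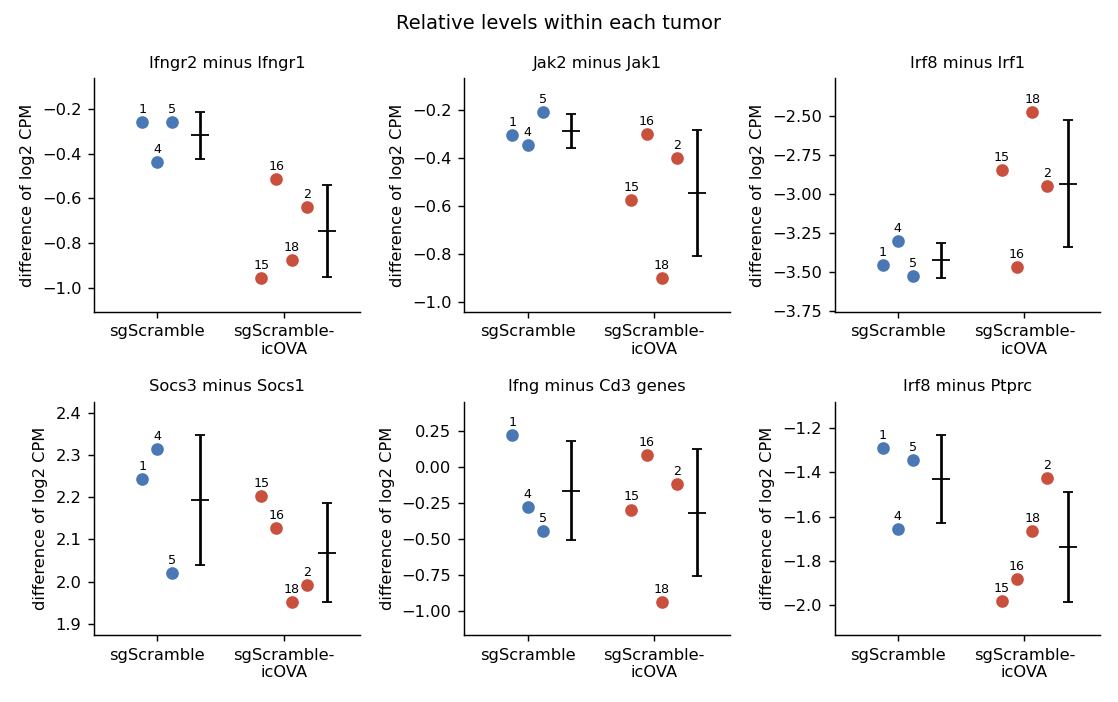
Difference of log2 CPM between paired genes within each tumor, with the tumor number above its point and the group mean ± SD (n = 3 and n = 4) beside the points. The Ifngr2 minus Ifngr1 panel is the only one of 6 in which the groups do not overlap. With 3 and 4 tumors the exact permutation test could not give a p under 0.05 in any panel.

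Scaling to Ptprc gave the levels per unit of this leukocyte transcript in place of per counted read. It moved the median log2 fold change of all genes from -0.0048 to -1.10. Since this shifts nearly all genes alike, the values relative to that median are close to those with TMM by construction. Ifng was 1.11 above it, Irf8 0.80, Socs1 0.46, Jak1 0.39, Socs3 0.34, Irf1 0.32, Jak2 0.15 and Ifngr1 0.14, while Ifngr2 was at -0.27. Set against Ptprc itself, the log2 fold change of Ifng was 0.0069 ± 0.26 (SE, edgeR adjusted p = 0.981), that of Irf8 was -0.30 ± 0.23 (SE, edgeR adjusted p = 0.232), and the other 7 genes were called lower, where 80.4% of all genes were called lower and 0.4% higher under this scaling.

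**Figure D3:**
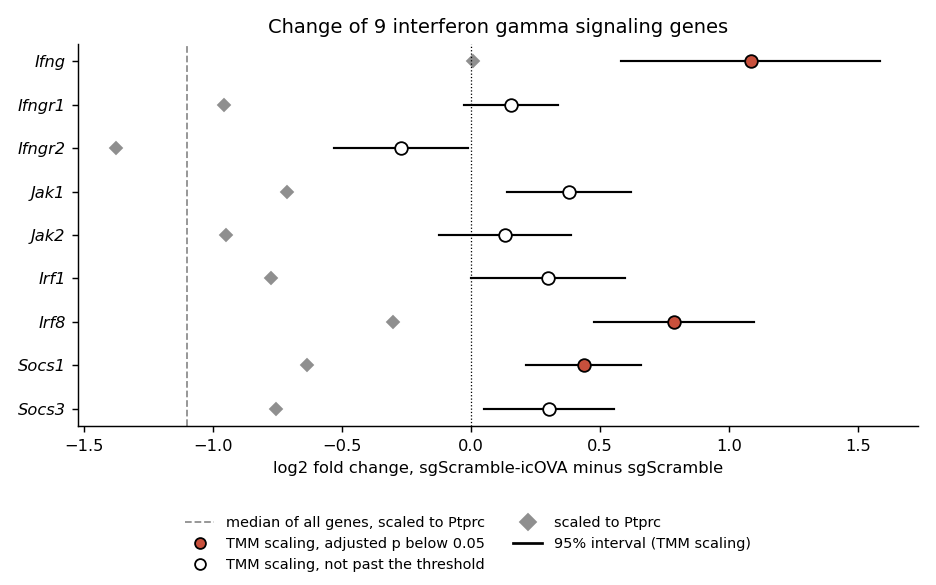
Log2 fold change (icOVA minus sgScramble) of the 9 genes with TMM scaling as circles with 95% intervals, filled where the adjusted p was below 0.05, and scaled to Ptprc as diamonds. With TMM scaling 8 of 9 values are positive, with Ptprc scaling only Ifng is, and 8 of the 9 diamonds lie to the right of the dashed line at -1.10, the median of all genes under that scaling.

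Levels of different genes were compared per kilobase of exonic sequence, with the exons of all annotated transcripts of a gene merged. In icOVA tumors Irf1 was highest at 172 ± 25.9 CPM per kb (SD, n = 4), followed by Ifngr1 at 64.3 ± 3.66 and Socs3 at 56.3 ± 4.69 CPM per kb. Jak1 at 32.7 ± 3.10, Jak2 at 32.3 ± 4.16 and Ifngr2 at 29.1 ± 3.21 CPM per kb had ranges that overlapped from each to the next. Ifng at 17.3 ± 4.20, Socs1 at 13.3 ± 1.38 and Irf8 at 12.7 ± 1.85 CPM per kb, the 3 genes that rose, were the lowest, and neighbours in this order overlapped too. The order of these 3 depends on the merged length, 1.295 kb for Ifng, 2.908 kb for Socs1 and 7.055 kb for Irf8. Without division by length Irf8 was the highest of the 3 in icOVA tumors, at a mean of 89.3 CPM. The leading Irf1, Ifngr1 and Socs3 kept their order in 7 of 7 tumors. In sgScramble tumors Ifngr2 at 35.1 ± 4.26 CPM per kb (SD, n = 3) lay above Jak2 at 29.5 ± 1.70 and Jak1 at 25.1 ± 2.64 CPM per kb, and Jak2 exceeded Ifngr2 in 0 of 3 sgScramble and 4 of 4 icOVA tumors. Ifng at 8.18 ± 1.27 CPM per kb was below Socs1 at 9.85 ± 0.400 CPM per kb in all 3 sgScramble tumors and above it in 3 of 4 icOVA tumors.

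The other genes of the pathway were counted in lists of 77 genes, of which 76 were tested and Ifnb1 was not in the table. By edgeR 13 of 76 were called higher, beside 3.36% of all genes, and none lower, beside 2.54%. At an unadjusted p under 0.05 there were 36 higher and 2 lower, beside 13.4% and 13.8% of all genes. DESeq2 called 31 higher and 1 lower, beside 8.91% and 7.31% of all genes, and limma-voom 11 higher and none lower, beside 2.96% and 2.42%. Their median log2 fold change was 0.27 with TMM scaling, 65 of 76 values were positive, and 28 genes had every icOVA tumor above every sgScramble tumor and 2 the reverse, beside 11.3% and 13.3% of all genes. With Ptprc scaling none was called higher and 57 of 76 were called lower, a share near the 80.4% of all genes called lower. In the fits that left out sgScramble tumor 1, sgScramble tumor 5, icOVA tumor 15 or icOVA tumor 2, no gene of these lists was called by edgeR, although 27 to 33 had an unadjusted p under 0.05 and a positive value.

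Upstream of Ifng, 3 of 12 genes of the cytokines and factors that induce it were called higher by edgeR, beside 3.36% of all genes. The median log2 fold change of these 12 was 0.89 with TMM scaling. Il27, which encodes a subunit of the cytokine IL-27, had 1.15, 1.22 and 1.25 CPM in sgScramble tumors 1, 4 and 5 and 2.49, 2.38, 2.21 and 2.52 CPM in icOVA tumors 15, 16, 18 and 2. Its groups were tight and apart, with a log2 fold change of 0.99 ± 0.17 (SE, edgeR adjusted p = 0.0271). Il12rb2, the IL-12 receptor chain of activated T and NK cells, went from 5.50 to 9.48 CPM in sgScramble tumors to 14.3 to 22.1 CPM in icOVA tumors (1.16 ± 0.23 SE on the log2 scale, edgeR adjusted p = 0.0349). Eomes, a factor of cytotoxic lymphocytes, was the third gene called, and Il18rap, an IL-18 receptor chain, had a log2 fold change of 0.53 with an adjusted p of 0.0743 from edgeR, which was 0.0215 without sgScramble tumor 4. Il18 itself had a log2 fold change of -0.30 (adjusted p = 0.335 from edgeR), the only negative value of the list.

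Among the shared signaling genes, none of 8 other Jak and Stat genes was called by edgeR, DESeq2 or limma-voom. At an unadjusted p under 0.05 edgeR gave 2 higher and 1 lower, beside 13.4% and 13.8% of all genes. Stat5a, a factor of IL-2 family cytokines, had a value of -0.24 (adjusted p = 0.120 from edgeR). Of 7 other Irf genes 3 were called higher by edgeR, beside 3.36% of all genes. Irf4, a lymphocyte factor, rose by 1.39 ± 0.24 on the log2 scale (SE, edgeR adjusted p = 0.0273). Irf7, a factor of type I interferon induction, rose by 0.36 (adjusted p = 0.0314 from edgeR), and the third was Irf5, a macrophage factor.

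Few negative regulators and related receptors passed the test. None of 6 other Socs genes was called by edgeR or limma-voom. DESeq2 called 1 higher, beside 8.91% of all genes, and edgeR gave 1 higher at an unadjusted p under 0.05, beside 13.4%. The median of the 6 Socs genes was -0.0058 with TMM scaling, with Socs4 at 0.19, Cish at 0.16 and Socs2 at -0.014. Of 9 genes for phosphatases, Pias proteins and Usp18, edgeR called 1 higher, beside 3.36% of all genes. It was Ptpn6, with a log2 fold change of 0.61 ± 0.13 (SE, edgeR adjusted p = 0.0430). Ptpn6 encodes SHP-1, a phosphatase of blood cells, whereas Ptpn11, its widely expressed relative, had a value of 0.020, and Ptpn1 had 0.36 (adjusted p = 0.0521 from edgeR). Without icOVA tumor 18 the adjusted p of Ptpn6 was 0.0577, while Ptpn1 was called without sgScramble tumor 4 (adjusted p = 0.0284 from edgeR) and without icOVA tumor 16 (0.0402). Of 4 other interferon receptor genes tested, edgeR called 1 higher, again beside 3.36% of all genes. Il10rb, a chain shared by interferon lambda and IL-10 receptors, was that gene and rose by 0.33 on the log2 scale (adjusted p = 0.0314 from edgeR). The chains of the type I receptor had values of 0.25 for Ifnar2 (adjusted p = 0.0637 from edgeR) and 0.083 for Ifnar1. Ifnlr1, the interferon lambda chain that pairs with Il10rb, had 15.6, 9.995 and 17.6 CPM in sgScramble tumors 1, 4 and 5 and 8.08, 7.68, 3.05 and 7.65 CPM in icOVA tumors 15, 16, 18 and 2. Every icOVA tumor was below every sgScramble tumor, and the log2 fold change was -1.12 ± 0.34 (SE, edgeR adjusted p = 0.0918), the largest in size of this list and the gene that DESeq2 called lower.

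Downstream, all 30 genes of a list of interferon gamma targets had a positive log2 fold change with TMM scaling, with a median of 0.40. By edgeR 5 of 30 were called higher, beside 3.36% of all genes, and 18 had an unadjusted p under 0.05 and a positive value, beside 13.4%. DESeq2 called 17 of them higher, beside 8.91% of all genes. In 14 of 30 every icOVA tumor lay above every sgScramble tumor, beside 11.3% of all genes. Cd274, which encodes PD-L1, had 207, 178 and 149 CPM in sgScramble tumors 1, 4 and 5 and 333, 397, 242 and 385 CPM in icOVA tumors 15, 16, 18 and 2, with an adjusted p of 0.0367 from edgeR. The lowest icOVA value was again that of tumor 18. The others that rose were Nos2, the inducible nitric oxide synthase, Gbp4, an interferon-induced GTPase, Psmb8, an immunoproteasome subunit, with a log2 fold change of 0.58 ± 0.11 (SE, edgeR adjusted p = 0.0314), and Cybb, a subunit of the phagocyte oxidase, with 0.90 ± 0.16 (SE, edgeR adjusted p = 0.0305). Gbp2, another such GTPase and the target with the highest mean CPM, had 3103 to 4002 CPM in sgScramble tumors and 3156 to 5501 CPM in icOVA tumors, with a log2 fold change of 0.29 (adjusted p = 0.368 from edgeR). Eomes, Irf5, Cd274, Nos2 and Gbp4 were named after their values were seen, as members of small counts, and so were Il18, Ifnlr1 and the 5 NK cell genes.

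**Figure D4:**
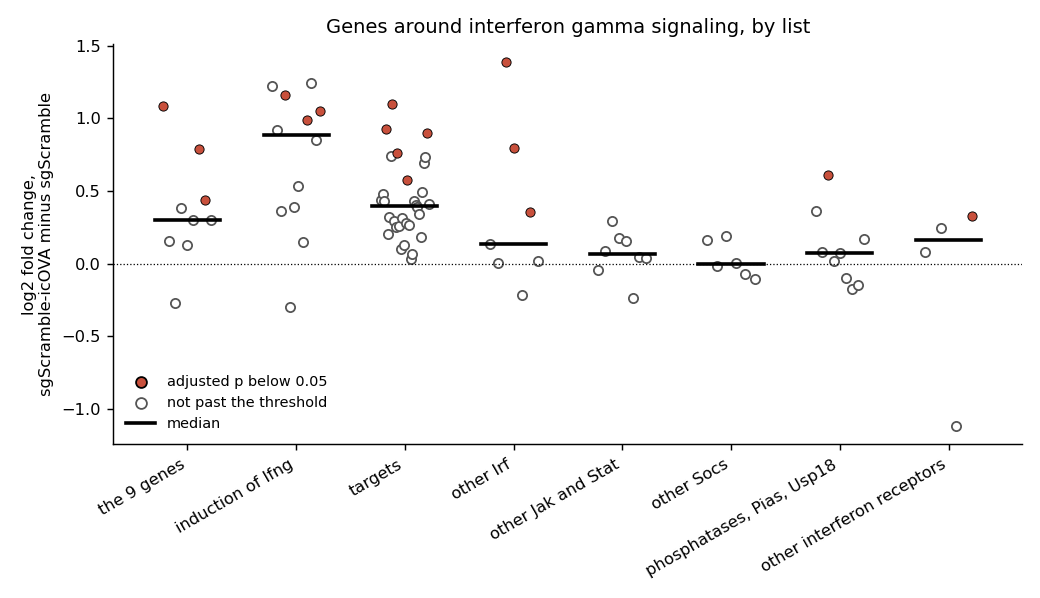
Log2 fold change (icOVA minus sgScramble, TMM scaling) of each tested gene of the pathway, by list, with filled points for an adjusted p below 0.05 and a bar at the median. The induction list has the highest median of the lists at 0.89 and all 30 targets lie above 0, while the other Socs genes lie around 0. With Ptprc scaling 57 of the 76 genes outside the 9 were called lower, beside 80.4% of all genes.

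The icOVA tumors did not share 1 ranking of the pathway. Tumor 18 was the lowest icOVA tumor for 5 of 9 genes, Ifng, Ifngr2, Jak2, Irf1 and Socs3, and for 21 of 30 targets (70%), and it was the lowest for 35.6% of all genes tested. Tumor 16 was the highest for 19 of 30 targets (63.3%), and for 28.7% of all genes tested. The T cell genes had another order, with all 8 lowest in tumor 16 and none lowest in tumor 18. Tumor 18 was also the lowest icOVA tumor for 6 of 6 epithelial cancer genes and the highest for 6 of 6 fibroblast genes. The fibroblast genes summed to 5607 to 36500 CPM in icOVA tumors. OVA was lowest in tumor 18 too, at 98.2 CPM, and highest in tumor 16, at 308 CPM, with 186 and 248 CPM in tumors 15 and 2. The part of any of these in the low values of tumor 18 was not tested. In sgScramble tumors, tumor 5 was the lowest for 6 of 9 genes, beside 32.3% of all genes tested, and tumor 4 the highest for 6 of 9, beside 39.3%. Tumor 4 was also the highest for all 8 T cell, all 6 macrophage and all 6 fibroblast genes, and the lowest for 4 of 6 epithelial cancer genes. Tumor 5 was the lowest for all 6 fibroblast and all 5 NK cell genes.

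**Figure D5:**
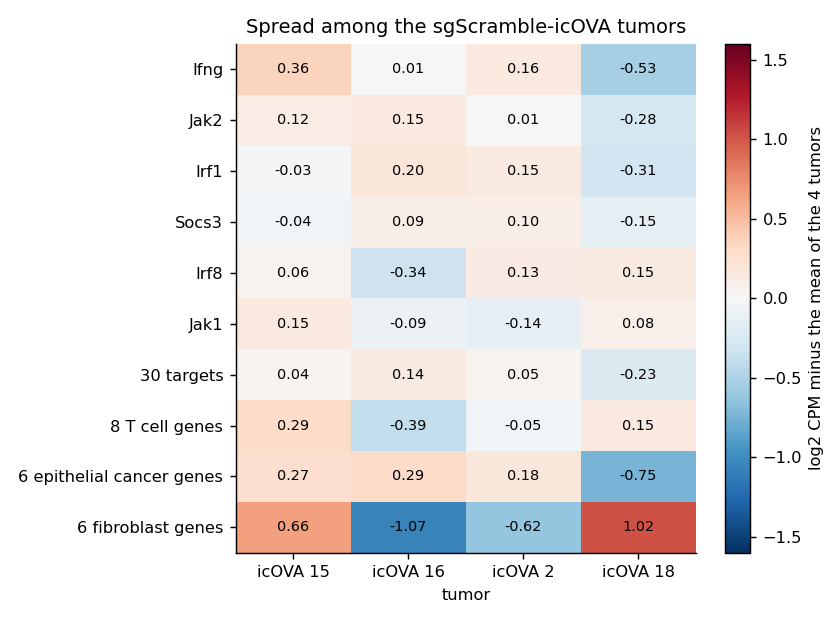
Log2 CPM minus the mean of the 4 icOVA tumors for 6 of the 9 genes and, for 4 lists, averaged over their genes, by tumor. Tumor 18 is at -0.53 for Ifng, -0.31 for Irf1 and -0.23 for the targets but at 0.15 for T cell genes, and tumor 16 is at 0.14 for the targets and -0.39 for T cell genes.

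Among 14127 genes with a mean count of at least 50, the pattern of Ifng over the 7 tumors was compared by the root mean square difference of log2 CPM after centring each gene on its mean. The closest were Ccrl2, a chemerin-binding receptor, at 0.132, Serpina3f, a serine protease inhibitor, at 0.144, and Fst, which encodes the activin-binding follistatin, at 0.149. Of the other 8 genes, Irf8 came closest at 0.341 and rank 262, and Ifngr2 was the farthest at 0.728 and rank 10860. These are descriptions over 7 tumors that share 2 groups.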

How the data were processed

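The authors deposited raw counts of reads per gene, as whole numbers without normalization, from bulk RNA of 7 tumors, prepared with a TruSeq kit. The submitters' processing notes name mm10, while the aligner, the counter and its use of strand are not given in the sources used here. Symbols came from Ensembl identifiers (22414 of 22628 matched), and coordinates and exonic lengths from GENCODE M21 on GRCm38. Total counts were 30904855 to 37510591. Low genes were removed with filterByExpr (a count of 10 and a total of 15), TMM scaled the libraries, and groups were compared with the quasi-likelihood test of edgeR 4.0.16 in R 4.3.3 with Benjamini-Hochberg adjustment over 17489 genes and a threshold of 0.05. Intervals are 95%. Log2 CPM had a prior count of 2. Relative levels were compared with exact permutation tests in scipy 1.17.1. Alternatives were DESeq2 1.42.0, limma-voom (limma 3.58.1), other scalings and filters, robust dispersion, a prior count of 0.5, scaling to Ptprc, and leaving out each tumor.

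The 9 genes and all lists were chosen with earlier results of these data known. Genes named beside the 9 were OVA, Ptprc, the 2 genes with the lowest p and the gene with the highest mean CPM of each pathway list, the 3 genes most like Ifng, and overlapping gene models. A gene that this rule names is not reported here. Each tumor has its own label and counts, so p-values measure the spread between these tumors.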

Additional observations from a re-analysis of the deposited data

Results flagged for a closer look

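Of 39 sets of 4 icOVA values examined, 2 had a tumor far from the other 3 by Dixon's 95% criterion on the gap to the nearest tumor over the range, and chance would give about 1.95. Ifngr1 had 7.63 log2 CPM in icOVA tumor 15 and 7.47, 7.48 and 7.47 in tumors 16, 18 and 2, with a gap of 0.933 of the range. Ccrl2, the gene with the pattern closest to Ifng, had 4.04 log2 CPM in tumor 18 and 4.66, 4.74 and 4.73 in tumors 15, 16 and 2, with a gap of 0.882 of the range.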

How the results depend on the processing

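The legend of the study's heat map uses the word paired for these groups. No number is used in both groups and the labels give no other link between tumors, so no paired analysis was possible. DESeq2 called 1558 genes higher and 1278 lower, and 31 pathway genes higher and 1 lower. Scaled to Ptprc, 70 genes were called higher and 14053 lower, 0 of the 9 higher and 7 lower, and 0 pathway genes higher and 57 lower. That scaling turned the sign of Ifngr1 (-0.96), Jak1 (-0.71), Jak2 (-0.95), Irf1 (-0.78), Irf8 (-0.30), Socs1 (-0.64), Socs3 (-0.76), Il27 (-0.097), Il18rap (-0.52), Irf7 (-0.73), Socs4 (-0.90), Cish (-0.92), Ptpn6 (-0.46), Ptpn1 (-0.72), Ptpn11 (-1.07), Il10rb (-0.77), Ifnar2 (-0.86), Ifnar1 (-1.02), Cybb (-0.15), Psmb8 (-0.50), Gbp2 (-0.76) and Fst (-0.15), in log2 fold change, with a shift of -1.10 in the median of all genes. With each tumor left out in turn, 0 to 1014 genes were called higher and 0 to 716 lower, 0 to 4 of the 9 genes higher, and 0 to 18 pathway genes higher. Of 63 such values for the 9 genes, 49 kept their side of the threshold, 13 lost a call and 1 gained it, and none changed sign. Under the 7 other alternatives 60 of 63 kept it, Ifng and Socs1 each lost a call and Jak1 gained it. Socs2 ran from -0.096 to 0.12 and changed sign without sgScramble tumor 4 (0.033), icOVA tumor 15 (0.0041) and icOVA tumor 18 (0.12). The relative levels ran from -0.50 to -0.36 for Ifngr2 and Ifngr1, -0.34 to -0.14 for Jak2 and Jak1, 0.34 to 0.67 for Irf8 and Irf1, -0.21 to -0.063 for Socs3 and Socs1, -0.42 to -0.23 for Irf8 and Ptprc, and -0.29 to 0.056 for Ifng and the Cd3 genes, which changed sign without sgScramble tumor 1 (0.041) and icOVA tumor 18 (0.056). What caused these changes was not tested.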
